A study of Mus musculus with 24 samples.

Results

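The aryl hydrocarbon receptor (AhR) was followed here with its dimerization partner, its repressor and a small set of its target genes, 7 of the 55421 genes in the count table. They were chosen by symbol as Ahr (the receptor), Ahrr (the AhR repressor), Arnt (the partner that AhR needs to bind DNA), Tiparp (an ADP-ribosyltransferase that limits AhR activity), Cyp1b1 (a cytochrome P450), Nqo1 (a quinone reductase) and Ugt1a7c (a UDP-glucuronosyltransferase). Each symbol matched 1 Ensembl identifier, and all 7 passed the filter on low counts. Expression was measured by RNA sequencing in bone marrow-derived macrophages (BMDMs), cells grown from mouse bone marrow, in 24 libraries that form 4 groups of 6. The groups were wildtype BMDMs without stimulation, AhR-deficient BMDMs without stimulation, wildtype BMDMs after LPS and AhR-deficient BMDMs after LPS. LPS, a bacterial cell wall component sensed by TLR4, was given at 97 EU/ml for 24 h from day 6 of culture. Every culture started with GM-CSF at 10 ng/ml and TGF-β at 2 ng/ml in medium with 10% serum and antibiotics. Per the methods, part of the medium was exchanged after 3 days for medium with more of both factors, to obtain alveolar-like macrophages. The labels of all groups list 5 µM of the Ca2+ ionophore A23187 for 10 min after the stimulation. They do not say separately whether unstimulated cultures received it, and if they did not, LPS and the ionophore cannot be told apart in the comparisons with LPS. Per the methods, wildtype mice were C57/B6/J and AhR-deficient mice were AhR KO/KO of the strain B6.129-Ahr tm1Bra/J, of both sexes and aged 7 to 14 weeks. This knockout is carried in the germline, so the bone marrow and every cell in the culture developed without the intact receptor, and an effect of AhR on differentiation and an effect in the finished macrophage cannot be told apart. The methods give 6 animals per group from 1 experiment, and the labels do not tie libraries of different groups to the same animal.

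AhR is a ligand-activated transcription factor of the bHLH-PAS family. Without ligand it is held in the cytosol by HSP90 and co-chaperones, and with ligand it enters the nucleus, pairs with ARNT and binds response elements that share the core GCGTG. Among the genes it turns on are its own brakes, Ahrr, whose product competes for ARNT, and Tiparp, beside enzymes of detoxification such as Cyp1b1, Nqo1 and the Ugt1a family. In barrier tissues such as the lung, the receptor responds to pollutants and to tryptophan metabolites.

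Libraries held 45106052 to 76992663 counted fragments. Values are given as CPM, counts per 1000000 counts of a library scaled by the TMM factors, which lay between 0.704 and 1.30. Of all genes, 16593 were tested with edgeR's quasi-likelihood test, and a call needed both an adjusted p no higher than 0.05 and a change by 2 times or more (a log2 fold change of 1). For the interaction, which asks whether the genotype effect differed between unstimulated and LPS-stimulated BMDMs, no minimum fold change was set. Every log2 fold change of genotype is AhR-deficient over wildtype. All comparisons share groups with one another. Wildtype replicates 34 (unstimulated) and 38 (LPS) held under 1 CPM of Y-linked genes in sum, where the others held at least 155 CPM, and without both of them every call of the 7 genes was kept except that of Ugt1a7c in the interaction (adjusted p = 0.080). Macrophage markers were present in every group, with none of 10 at 0. Other markers moved with genotype, beside 3.57% of all tested genes lower and 0.916% higher in AhR-deficient BMDMs without stimulation and 6.19% lower and 2.17% higher after LPS. Of 9 neutrophil markers tested, 9 were lower in AhR-deficient BMDMs without stimulation and 7 after LPS, with a summed level of 2162 to 12936.5 CPM in unstimulated wildtype and 279.9 to 826.1 CPM in unstimulated AhR-deficient BMDMs, and of 846 to 8568 CPM and 154 to 1036 CPM after LPS. Of 11 dendritic and Langerhans cell markers tested, 6 were lower in each state, among them Cd207 (35.4 CPM in wildtype and 0.0384 CPM in AhR-deficient BMDMs without stimulation), while 2 were higher without stimulation and 1 after LPS. The summed level of this list, most of it Itgax in unstimulated BMDMs, was 340 to 1004 CPM in wildtype and 601 to 1805 CPM in AhR-deficient BMDMs without stimulation, and 1252 to 3051 CPM and 987 to 3604 CPM after LPS. Of 8 mast cell and basophil markers tested, 5 were lower in each state. Their sum was lower in AhR-deficient BMDMs without stimulation (8.38 to 28.3 CPM in wildtype and 2.33 to 4.797 CPM) and higher after LPS (332 to 516 CPM and 534 to 836 CPM), where Hdc, uncalled there, made up most of it. Of 10 alveolar macrophage markers, 3 were higher in AhR-deficient BMDMs in each state. Of 10 macrophage markers, C5ar1 was lower in AhR-deficient BMDMs in both states and Fcgr1 higher after LPS. Of the lymphocyte markers 1 of 10 passed the filter, and of the fibroblast and epithelial markers 4 of 8, among which Klrb1c and Dcn were higher in AhR-deficient BMDMs after LPS. After LPS the lymphocyte list summed to only 0.310 to 1.10 CPM in wildtype and 0.236 to 1.19 CPM in AhR-deficient BMDMs. The fibroblast and epithelial list summed to 0.851 to 8.75 CPM and 9.87 to 27.1 CPM, without overlap. In these bulk samples, fewer cells of a type and less RNA per cell cannot be told apart, and the part of these markers in the results below was not tested.

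**Figure D1:**
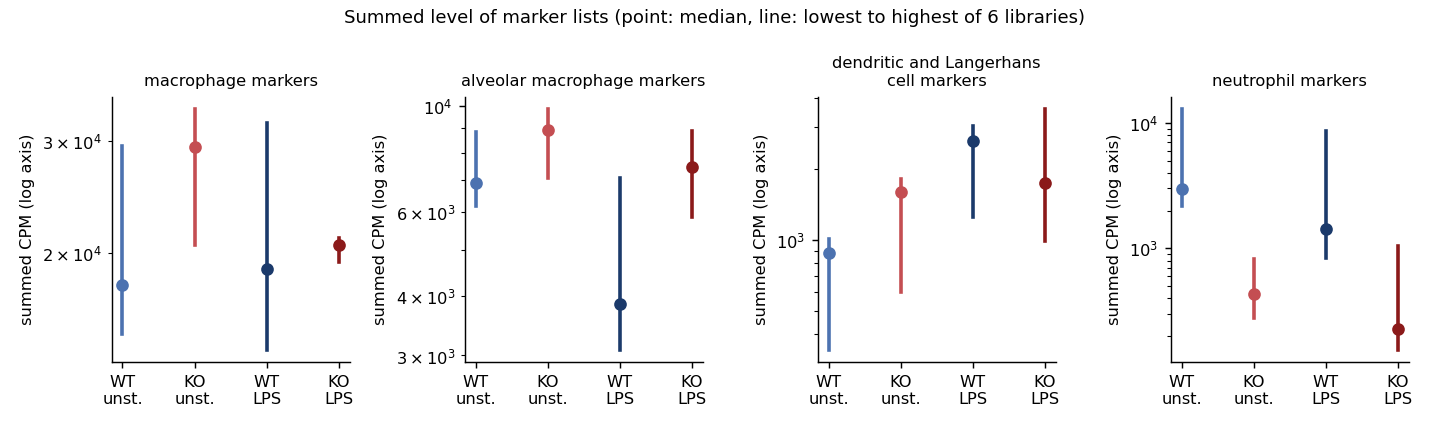
Summed CPM of 4 lists of cell type markers (log axes) in the 4 groups, with the median as a point and the lowest to highest of 6 libraries as a line. The sum of neutrophil markers does not overlap between genotypes without stimulation and overlaps after LPS, where the highest AhR-deficient library (1036 CPM) lies above the lowest wildtype library (846 CPM).

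Without stimulation, AhR-deficient BMDMs had lower levels of Ahr, Ahrr and Cyp1b1, whereas Arnt, Tiparp, Nqo1 and Ugt1a7c were not called. These 3 of 7 genes stand beside 4.48% of all tested genes called in this comparison, and all 3 were lower (3.57% of all tested genes, with 0.916% higher). After LPS, 4 of 7 were called, against 8.36% of all tested genes. Ahrr, Cyp1b1 and Ugt1a7c were lower (6.19% of all tested genes), whereas Ahr was now higher in AhR-deficient than in wildtype BMDMs (2.17% of all tested genes). LPS itself raised Cyp1b1 in wildtype BMDMs and left the other 6 genes uncalled, beside 24.9% of all tested genes called. In AhR-deficient BMDMs, LPS raised Ahr, Tiparp and Cyp1b1 and lowered Ugt1a7c, 4 of 7 genes beside 30.8% of all tested genes (15.1% higher and 15.7% lower). The genotype effect differed between the states for Ahr, Tiparp and Ugt1a7c, 3 of 7 genes beside 4.3% of all tested genes. It was more positive after LPS for Ahr and Tiparp (1.95% of all tested genes) and more negative for Ugt1a7c (2.34%). The median log2 fold change of the 7 genes was −0.52 without stimulation and −0.75 after LPS, beside −0.0057 and −0.046 over all tested genes.

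**Figure D2:**
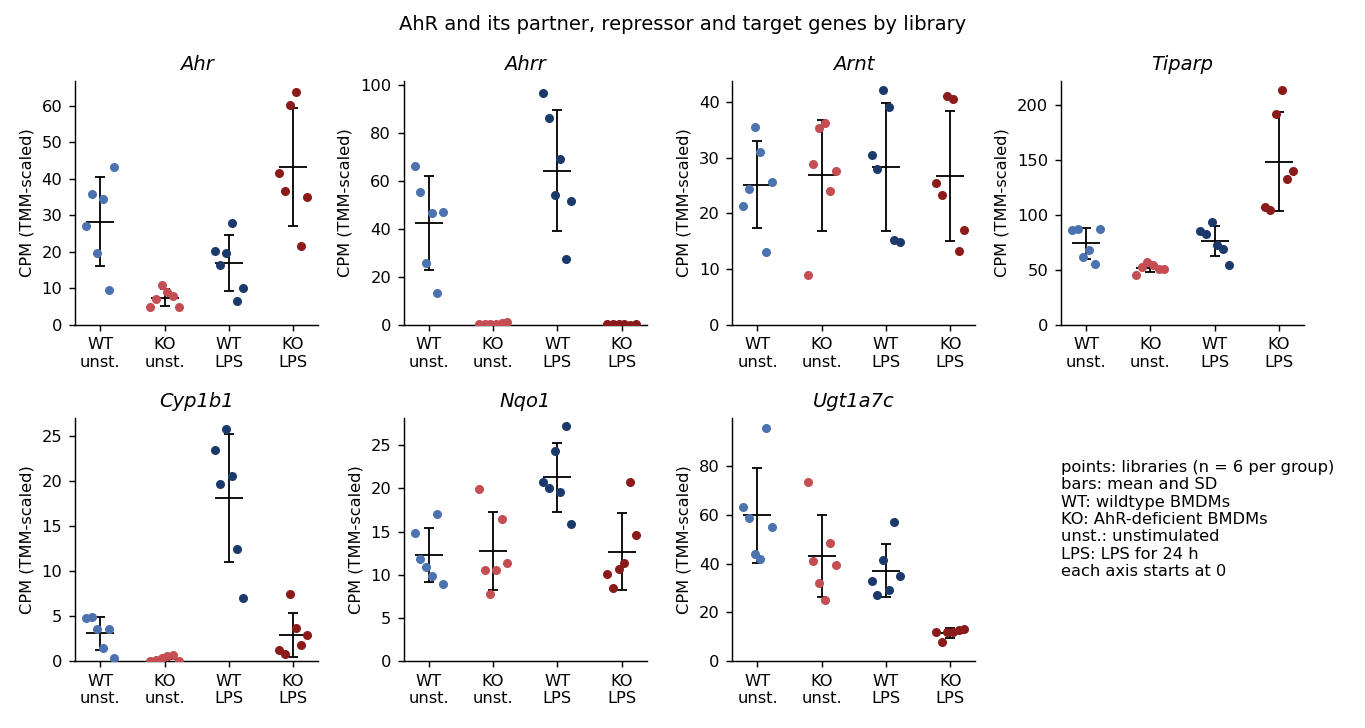
CPM of each gene in each library (points, n = 6 per group) with the mean and SD of the group (bars), on linear axes that start at 0. Ahrr lies between 13.3 and 96.6 CPM in all 12 wildtype libraries and at or below 1.05 CPM in all 12 AhR-deficient libraries, and Ahr changes its order between the genotypes with LPS.

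**Figure D3:**
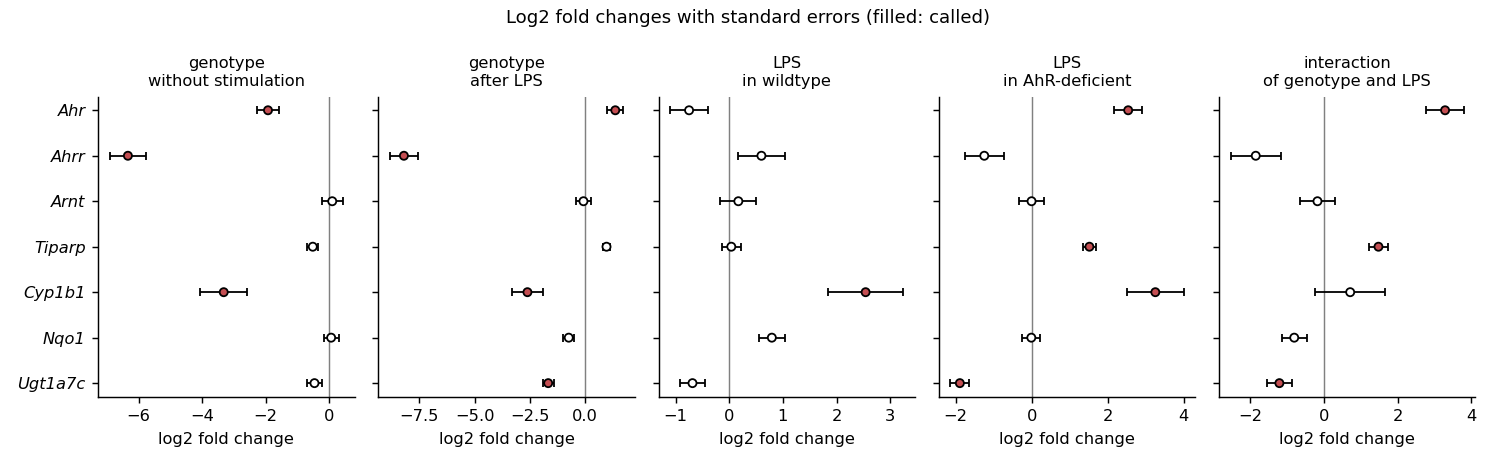
Log2 fold changes (points) with standard errors (bars) of the 7 genes in the 5 comparisons, each panel on its own axis, with called genes filled. Ahr lies left of 0 for genotype without stimulation (−1.93) and right of 0 after LPS (1.36), and Arnt lies near 0 in each panel.

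Ahr itself (ENSMUSG00000019256, chromosome 12, 35497974 to 35535038, minus strand, mm10) was counted in all 24 libraries, with 209 to 3538 fragments. In unstimulated wildtype BMDMs its lowest, median and highest values were 9.60, 30.7 and 43.1 CPM, and in unstimulated AhR-deficient BMDMs 4.74, 7.40 and 10.96 CPM. All but 1 of the AhR-deficient libraries lay below the wildtype range. After LPS the values were 6.57, 18.03 and 27.9 CPM in wildtype and 21.4, 39.2 and 63.8 CPM in AhR-deficient BMDMs. Here 5 of 6 AhR-deficient libraries lay above the wildtype range. The log2 fold change of genotype was −1.93 (SE 0.36, adjusted p = 0.00097) without stimulation and 1.36 (SE 0.35, adjusted p = 0.011) after LPS. Read along the other axis, LPS raised Ahr in AhR-deficient BMDMs by a log2 fold change of 2.54 (SE 0.37, adjusted p = 4.3e-06), with all 6 stimulated libraries above all 6 unstimulated ones. In wildtype BMDMs the corresponding value was −0.75 (SE 0.35, adjusted p = 0.099), with 1 of 6 stimulated libraries below the unstimulated range. The difference between these responses, the interaction, was 3.29 on the log2 scale (SE 0.50, adjusted p = 0.00037). Scaled by total library size, this gene's genotype effect after LPS was 1.11 (adjusted p = 0.057). That scaling moved the median of all tested genes by −0.22 in the same comparison.

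The gene counts alone do not show whether these fragments form an intact message. By quantitative PCR, the paper could not detect Ahr in BMDMs of fully AhR-deficient animals, with no stimulation stated. The tm1Bra allele is known to disrupt the second exon, which encodes the start of the DNA-binding domain. In the reference transcript Ahr-202, which has 11 exons, exon 2 covers 188 bases (chr12:35526681-35526868), 3.05% of the 6163 bases of merged exons on which fragments were counted. The count of the gene therefore rests mostly on the other exons. The study's quantitative PCR primers for Ahr are printed here because the forward one reads exon 2 itself, with bases in exon 2 in capitals. The forward primer lies wholly in exon 2 (chr12:35526712-35526732), and the reverse primer spans exons 3 and 4.
Ahr forward: TCTGTTCTTAGGCTCAGCGTC
Ahr reverse: gcgcctgtaacaagaactctc

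Arnt (ENSMUSG00000015522, chromosome 3, 95434388 to 95497240, plus strand), the constitutive partner that AhR shares with the hypoxia-inducible factors, was not called in any comparison. Its lowest, median and highest values were 13.1, 25.01 and 35.4 CPM in unstimulated wildtype, 8.97, 28.3 and 36.3 CPM in unstimulated AhR-deficient BMDMs. After LPS they were 14.9, 29.3 and 42.1 CPM in wildtype and 13.3, 24.3 and 41.1 CPM in AhR-deficient BMDMs. The 4 ranges overlapped over most of their width. The log2 fold change of genotype was 0.094 (SE 0.34, adjusted p = 1) without stimulation and −0.081 (SE 0.34, adjusted p = 0.96) after LPS. For LPS it was 0.17 (SE 0.34, adjusted p = 0.74) in wildtype and −0.0048 (SE 0.34, adjusted p = 0.99) in AhR-deficient BMDMs. The standard errors leave room for differences of this size and do not show that Arnt was equal between the groups.

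The spread of Arnt within groups ran with a property of the libraries. Each library's slope of log2 CPM on log2 gene length, a measure of how far long genes outweigh short ones, lay between 0.0952 and 0.585. The deviations of Arnt from its group means correlated with those of the slope at r = 0.971 over the 24 libraries (Pearson, a description across libraries that share groups). The same correlation was 0.769 for Ahr, 0.491 for Tiparp, 0.473 for Ahrr and 0.331 for Cyp1b1, and negative for the other two, −0.618 for Nqo1 and −0.721 for Ugt1a7c. In replicates 19 and 33, which had the lowest slopes of their groups, Ahr, Ahrr, Arnt and Tiparp were at the lowest and Nqo1 and Ugt1a7c at the highest level of the group. The lowest slopes after LPS, replicates 37 (wildtype) and 39 (AhR-deficient), followed this in part, since both had the lowest Ahr and Ahrr and the highest Nqo1, whereas Tiparp was lowest in replicates 38 and 24, Arnt of wildtype was lowest in replicate 38 and Ugt1a7c of AhR-deficient BMDMs was highest in replicate 40. The slope did not separate the groups, whose mean slopes were between 0.367 and 0.407. With the slope as a covariate, the SE of the genotype effect on Arnt without stimulation fell from 0.34 to 0.096, around a log2 fold change of 0.0007. The same fit gave −1.95 (SE 0.24) for Ahr. Tiparp at −0.53 (SE 0.14, adjusted p = 0.0097) and Ugt1a7c at −0.46 (SE 0.16, adjusted p = 0.044) passed the p there, with fold changes under 2.

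**Figure D4:**
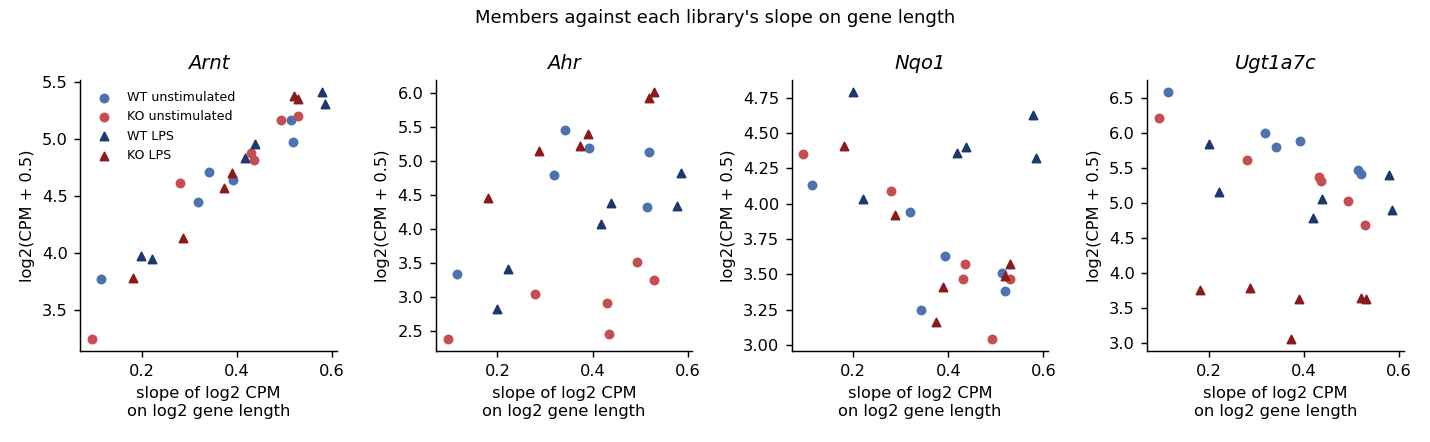
Log2(CPM + 0.5) of Arnt, Ahr, Nqo1 and Ugt1a7c (vertical axes) against each library's slope of log2 CPM on log2 gene length (horizontal axes), with circles for unstimulated and triangles for LPS-stimulated libraries. Arnt lies along 1 line in all 4 groups, and Ugt1a7c of LPS-stimulated AhR-deficient BMDMs lies below every other library at any slope.

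Set against Arnt in the same library, Ahr kept the genotypes apart in both states. This ratio was formed after the values had been seen and is a description. Ahr had 0.553 to 1.68 counts per count of Arnt in unstimulated wildtype and 0.180 to 0.528 in unstimulated AhR-deficient BMDMs. After LPS the ratio was 0.432 to 0.713 in wildtype and 1.47 to 2.05 in AhR-deficient BMDMs. The genotypes did not overlap in either state, whereas their CPM values overlapped by 1 AhR-deficient library in each. The coefficient of variation of Ahr was lower as the ratio than in CPM in 3 groups, at 38.02% and 43.03% in unstimulated wildtype, 19.9% and 45.4% in wildtype after LPS and 12.2% and 37.4% in AhR-deficient BMDMs after LPS, and higher in unstimulated AhR-deficient BMDMs, at 39.4% and 32.2%. The merged exons of Ahr and Arnt are 6163 and 8007 bases long, and their counts were not corrected for length.

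**Figure D5:**
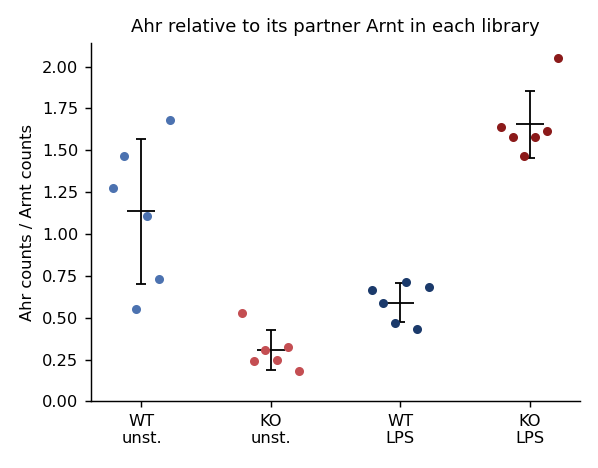
Counts of Ahr divided by counts of Arnt in each library (points, n = 6 per group) with mean and SD (bars), on a linear axis from 0. The AhR-deficient libraries lie at 0.180 to 0.528 without stimulation and at 1.47 to 2.05 after LPS, below the wildtype libraries of the same state without stimulation and above them after LPS.

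Ahrr (ENSMUSG00000021575, chromosome 13, 74211118 to 74292331, minus strand), the repressor that competes with AhR for ARNT, had the largest genotype difference of the 7 genes in both states. In unstimulated wildtype BMDMs the lowest, median and highest values were 13.3, 46.7 and 66.1 CPM, and after LPS 27.2, 61.6 and 96.6 CPM. In AhR-deficient BMDMs they were 0.113, 0.443 and 1.05 CPM without stimulation and 0, 0.200 and 0.421 CPM after LPS. No AhR-deficient library overlapped the wildtype libraries in either state, which held for 5.15% of all tested genes without stimulation and 7.11% after LPS. The 6 AhR-deficient libraries held 208 fragments of Ahrr without stimulation, against 17945 in wildtype, and 66 after LPS, against 21777. Replicate 39 held none, which allows up to 3 counts (counting error only). The log2 fold change of genotype was −6.34 (SE 0.57, adjusted p = 1.0e-07) without stimulation and −8.19 (SE 0.62, adjusted p = 4.9e-09) after LPS. The LPS response was 0.60 (SE 0.45, adjusted p = 0.32) in wildtype and −1.25 (SE 0.51, adjusted p = 0.052) in AhR-deficient BMDMs. Their difference, −1.85 (SE 0.68, adjusted p = 0.16), did not pass. The response in AhR-deficient BMDMs was called with DESeq2 (−1.23, adjusted p = 0.025), under scaling by total library size (−1.74, adjusted p = 0.012), with run as a factor (−1.29, adjusted p = 0.042), among genes with a mean of at least 1 CPM (−1.28, adjusted p = 0.046) and without any 1 of replicates 19, 33, 37 or 40 (adjusted p of 0.020 to 0.046).

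Tiparp (ENSMUSG00000034640, chromosome 3, 65528410 to 65555518, plus strand), the ADP-ribosyltransferase that acts on AhR as a negative regulator, behaved differently from Ahrr. Its lowest, median and highest values were 55.6, 76.9 and 87.3 CPM in unstimulated wildtype and 45.5, 51.7 and 57.0 CPM in unstimulated AhR-deficient BMDMs. All but 1 of the AhR-deficient libraries lay below the wildtype range, with a log2 fold change of −0.52 (SE 0.17, adjusted p = 0.088). After LPS the values were 54.6, 77.6 and 93.6 CPM in wildtype and 104.8, 136 and 214 CPM in AhR-deficient BMDMs, with no overlap. The log2 fold change after LPS was 0.96 (SE 0.17, adjusted p = 0.00043), which passed the p but not the fold change of 2. It passed both without replicate 23, 24 or 29 (1.03 to 1.04) and among genes with a mean of at least 1 CPM (1.01). LPS raised Tiparp in AhR-deficient BMDMs by a log2 fold change of 1.52 (SE 0.18, adjusted p = 1.7e-07), with all stimulated above all unstimulated libraries. In wildtype BMDMs the value was 0.040 (SE 0.17, adjusted p = 0.89). The interaction was 1.48 (SE 0.25, adjusted p = 0.00078). The correlation of Tiparp with Ahr over the 24 libraries (r = 0.834 of log2 values) was the highest between any pair of the 7 genes.

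Cyp1b1 (ENSMUSG00000024087, chromosome 17, 79701537 to 79715061, minus strand), a P450 enzyme that oxidizes polycyclic hydrocarbons and oestrogens, was called by genotype in both states and rose with LPS in both genotypes. Without stimulation its lowest, median and highest values were 0.347, 3.55 and 4.95 CPM in wildtype and 0, 0.294 and 0.656 CPM in AhR-deficient BMDMs. Only 3 of the AhR-deficient libraries lay below the wildtype range, since wildtype replicate 34 was low, and replicate 36 held no fragment of Cyp1b1. After LPS the values were 7.001, 20.1 and 25.7 CPM in wildtype and 0.788, 2.33 and 7.42 CPM in AhR-deficient BMDMs, where 5 of 6 lay below the wildtype range. The log2 fold change of genotype was −3.32 (SE 0.74, adjusted p = 0.0053) and −2.61 (SE 0.71, adjusted p = 0.014) in the 2 states. LPS raised it by 2.54 (SE 0.70, adjusted p = 0.0057) in wildtype and 3.25 (SE 0.74, adjusted p = 0.00089) in AhR-deficient BMDMs, with no overlap between unstimulated and stimulated libraries of either genotype. Non-overlap of this kind held for 22.4% of all tested genes in wildtype and 28.5% in AhR-deficient BMDMs. The interaction was 0.71 (SE 0.95, adjusted p = 0.96). Stimulated AhR-deficient BMDMs, at a mean of 2.96 ± 2.43 CPM (SD, n = 6), stood at about the level of unstimulated wildtype BMDMs, at 3.11 ± 1.83 CPM (SD, n = 6), though this pair of groups was not tested.

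Nqo1 (ENSMUSG00000003849, chromosome 8, 107388225 to 107403206, minus strand), a quinone reductase that is also a standard target of NRF2, was not called in any of the 5 comparisons. Its lowest, median and highest values without stimulation were 8.998, 11.4 and 17.1 CPM in wildtype and 7.73, 10.98 and 19.9 CPM in AhR-deficient BMDMs, 1 range inside the other. After LPS they were 15.9, 20.3 and 27.2 CPM in wildtype and 8.45, 11.1 and 20.8 CPM in AhR-deficient BMDMs, and 5 of 6 AhR-deficient libraries lay below the wildtype range. The genotype effect was 0.060 (SE 0.24, adjusted p = 1) without stimulation and −0.75 (SE 0.24, adjusted p = 0.040) after LPS. LPS gave 0.79 (SE 0.24, adjusted p = 0.010) in wildtype, with 5 of 6 stimulated libraries above the unstimulated range, and −0.011 (SE 0.24, adjusted p = 0.98) in AhR-deficient BMDMs. The genotype effect after LPS and the LPS response in wildtype passed the p, with fold changes under 2. The interaction was −0.81 (SE 0.33, adjusted p = 0.25). Adding each library's length slope to the fit gave −0.89 (adjusted p = 0.014), so that Nqo1 passed there and not in the fit without it.

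Ugt1a7c (ENSMUSG00000090124, chromosome 1, 88095062 to 88220002, plus strand), an enzyme that conjugates lipophilic compounds to glucuronic acid, shares 2304 of its 4219 exon bases (54.6%) with 8 other Ugt1a genes. Fragments there belong to several genes and were not counted, so its counts come from the 1915 bases of its own, and its level per length is uncertain. In unstimulated BMDMs its lowest, median and highest values were 42.0, 56.8 and 95.3 CPM in wildtype and 25.2, 40.1 and 73.4 CPM in AhR-deficient BMDMs, with 4 of 6 AhR-deficient libraries below the wildtype range. The log2 fold change was −0.46 (SE 0.24, adjusted p = 0.42). After LPS the values were 27.1, 33.9 and 57.0 CPM in wildtype and 7.84, 11.9 and 13.3 CPM in AhR-deficient BMDMs. These groups did not overlap, with a log2 fold change of −1.67 (SE 0.25, adjusted p = 3.8e-05). LPS lowered Ugt1a7c in AhR-deficient BMDMs by a log2 fold change of −1.89 (SE 0.25, adjusted p = 9.3e-07), with all stimulated below all unstimulated libraries. In wildtype BMDMs the value was −0.68 (SE 0.24, adjusted p = 0.027), with 5 of 6 stimulated libraries below the unstimulated range. The interaction was −1.21 (SE 0.34, adjusted p = 0.042). Its adjusted p was above 0.05, at 0.051 to 0.075, without any 1 of 16 of the 24 replicates, at 0.063 with limma-voom and at 0.060 without a filter on low counts.

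The library numbers form 3 runs of 8 (17 to 24, 25 to 32 and 33 to 40) with 2 libraries per group in each, and the labels do not say whether runs are batches. Within runs, on the scale of log2(CPM + 0.5), the genotype difference of Ahr was −2.33, −1.34 and −1.64 without stimulation and 1.08, 1.39 and 1.68 after LPS. For Ahrr it was −6.34, −5.22 and −4.28, and after LPS −6.97, −6.47 and −5.81. Tiparp differed by −0.81, −0.22 and −0.45 and after LPS by 0.33, 1.30 and 1.15. Each of these kept 1 sign in all 3 runs, and so did Cyp1b1 and Ugt1a7c in both states. Nqo1 changed sign between runs without stimulation, with 0.13, −0.19 and 0.14, and kept it after LPS, with −1.09, −0.95 and −0.25. Arnt changed sign in both states, with −0.48, 0.11 and 0.48 without stimulation and −0.26, 0.0081 and −0.0033 after LPS. The runs differed in the slope on gene length, which was 0.492 to 0.585 in the 8 libraries of the second run, 0.0952 to 0.438 in the first and 0.114 to 0.435 in the third.

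Levels were set in order as CPM per kb of merged exons, with Ugt1a7c kept apart because of its shared exons. Among the other 6 genes Tiparp was highest in all 4 groups, at 17.02 ± 3.26 CPM per kb (SD, n = 6) in unstimulated wildtype BMDMs and 34.1 ± 10.3 CPM per kb in AhR-deficient BMDMs after LPS. In unstimulated wildtype BMDMs Tiparp was followed by Nqo1, Ahr, Ahrr, Arnt and Cyp1b1. The ranges of neighbours in that order overlapped except between Tiparp and Nqo1 and between Arnt and Cyp1b1. In LPS-stimulated wildtype BMDMs the order was Tiparp, Nqo1, Ahrr, Arnt, Cyp1b1 and Ahr, and the ranges of every neighbouring pair overlapped. In unstimulated AhR-deficient BMDMs Ahr stood in position 4 at 1.20 ± 0.387 CPM per kb, and Ahrr and Cyp1b1 followed at 0.0546 and 0.0524 CPM per kb, with overlapping ranges. After LPS Ahr stood in position 3 in AhR-deficient BMDMs at 7.0003 ± 2.62 CPM per kb, behind Nqo1 at 8.17 ± 2.87, a pair whose ranges overlapped, and Ahrr was last at 0.0226 CPM per kb. The place of Ugt1a7c depended on the length taken for it. Over all 4219 exon bases it stood at 14.1 ± 4.58 CPM per kb in unstimulated wildtype BMDMs, below Tiparp in all 4 groups. Over the 1915 bases of its own, a length taken after the values had been seen, it stood at 31.2 ± 10.1 CPM per kb there. By the mean it was then above Tiparp in all groups but AhR-deficient BMDMs after LPS, where it held 6.08 ± 1.03 CPM per kb. In wildtype BMDMs after LPS the means were close for their SDs, at 19.4 ± 5.72 for Ugt1a7c and 17.5 ± 3.21 for Tiparp.

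Promoter sequences, from RefSeq on build GRCm38.p6, were searched for the core of the AhR response element, GCGTG, on both strands of a window of 300 bases around the gene start. Windows were found for 6 of the 7 genes, all but Ahr. Ahrr held 3 copies, at −107, −82 and −27 relative to the start, Arnt, Tiparp and Cyp1b1 held 1 each, and Nqo1 and Ugt1a7c held none. Of 32851 such windows of all genes, 32.4% hold at least 1 copy and 3.91% hold 3 or more. The longer form TNGCGTG, which overlaps the core, was present in the Ahrr window alone of the 6, and in 5.07% of all windows. A match is a description of these letters, not a site of binding. The parts of the windows before the first transcribed base are printed for the 4 genes with a copy, to set the repressor and Cyp1b1, which were lower in AhR-deficient BMDMs in both states, beside Tiparp and Arnt, which were not. Capitals mark the core, which reads as CACGC where it lies on the other strand. The regions are chr13:74292332-74292581 (minus strand) for Ahrr, chr17:79715062-79715311 (minus strand) for Cyp1b1, chr3:65528197-65528409 (plus strand) for Tiparp and chr3:95434140-95434387 (plus strand) for Arnt.
Ahrr: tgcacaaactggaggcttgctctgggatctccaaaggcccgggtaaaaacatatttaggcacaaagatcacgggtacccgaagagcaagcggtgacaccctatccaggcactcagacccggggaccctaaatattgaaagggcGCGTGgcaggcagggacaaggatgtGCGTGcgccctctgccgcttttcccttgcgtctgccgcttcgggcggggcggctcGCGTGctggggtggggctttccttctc
Cyp1b1: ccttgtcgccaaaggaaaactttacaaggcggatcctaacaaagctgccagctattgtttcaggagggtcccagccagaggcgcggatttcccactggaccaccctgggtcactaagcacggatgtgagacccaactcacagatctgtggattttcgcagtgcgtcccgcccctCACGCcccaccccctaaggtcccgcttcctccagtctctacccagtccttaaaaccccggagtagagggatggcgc
Tiparp: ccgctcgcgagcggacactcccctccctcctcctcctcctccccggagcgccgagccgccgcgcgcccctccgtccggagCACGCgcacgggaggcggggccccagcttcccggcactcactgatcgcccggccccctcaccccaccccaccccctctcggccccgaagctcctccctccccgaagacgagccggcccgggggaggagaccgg
Arnt: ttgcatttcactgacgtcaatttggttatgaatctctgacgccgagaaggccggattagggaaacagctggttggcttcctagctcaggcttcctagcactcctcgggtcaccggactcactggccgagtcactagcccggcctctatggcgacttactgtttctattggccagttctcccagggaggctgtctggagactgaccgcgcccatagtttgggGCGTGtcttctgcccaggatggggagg

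The genes around the receptor were counted from lists drawn up from general knowledge. None of 7 genes of the cytosolic complex, such as the chaperone Hsp90ab1 and the co-chaperone Ptges3, was called by genotype in either state, beside 4.48% of all tested genes without stimulation and 8.36% after LPS, so that a count of 0 is near the background. LPS raised Src, a kinase bound to the complex, in both genotypes (12.2 to 68.1 CPM in wildtype, log2 fold change 2.48, adjusted p = 0.0012) and Hsp90aa1 and Dnaja1 in AhR-deficient BMDMs, which makes 1 of 7 and 3 of 7 genes beside 24.9% and 30.8% of all tested genes. Of 11 other bHLH-PAS factors tested, none was called by genotype, again near the background, and LPS changed 3 in wildtype and 2 in AhR-deficient BMDMs, beside the same 24.9% and 30.8%. Hif1a, the hypoxia-inducible partner of ARNT, rose with LPS from 210 to 426 CPM in wildtype and from 151 to 512 CPM in AhR-deficient BMDMs, and this response differed between the genotypes by 0.74 on the log2 scale (adjusted p = 0.0083). Clock, a circadian factor, fell with LPS by log2 fold changes of −1.07 and −1.25. Among 18 co-regulators of AhR, none was called by genotype without stimulation and 2 were lower after LPS, beside 6.19% of all tested genes. Ncoa1, Ncoa2 and Ncoa3 are counted here and also among the 11 bHLH-PAS factors above. Ncoa7, a nuclear receptor coactivator, stood at 115 CPM in wildtype and 19.7 CPM in AhR-deficient BMDMs (log2 fold change −2.54, adjusted p = 0.00026), and Relb, an NF-κB subunit that binds AhR, at 152 and 72.5 CPM (−1.06, adjusted p = 0.00092). The median of these 18 genes was −0.36 after LPS, beside −0.046 over all tested genes, and was not tested. Several of the negative values had standard errors larger than themselves, such as Ncoa2 at −0.53 (SE 0.83), Ncoa3 at −0.47 (SE 0.83) and Smarca4 at −0.52 (SE 0.84).

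Of 20 genes of the classical AhR battery, which include Tiparp and Nqo1, 14 were tested. The best-known targets Cyp1a1, Cyp1a2 and Aldh3a1 had group means of at most 0.115 CPM and were not tested. None of the 14 was called higher in AhR-deficient BMDMs in either state, beside 0.916% of all tested genes without stimulation and 2.17% after LPS, and 3 were lower in each, beside 3.57% and 6.19%. Slc7a5, a transporter that brings tryptophan metabolites such as kynurenine into cells, was lower in both, at 74.1 ± 7.65 and 30.4 ± 6.75 CPM (SD, n = 6) without stimulation (log2 fold change −1.29, adjusted p = 0.00014) and at 92.5 ± 30.7 and 14.7 ± 2.93 CPM after LPS (−2.66, adjusted p = 8.9e-09). Its interaction was −1.37 (adjusted p = 0.0048). Serpinb2, a serine protease inhibitor, was lower without stimulation (2.32 and 0.202 CPM, log2 fold change −3.59, adjusted p = 0.00052) and uncalled after LPS, where it stood at 944 and 744 CPM. Il22, a cytokine gene called in both states (adjusted p = 0.017 and 2.0e-05), had no count in any of the 12 AhR-deficient libraries and 0.116 and 11.1 CPM in wildtype without and with LPS. Ugt1a6b, called after LPS and named after its values were seen since its mean is under 1 CPM, stood at 0.517 CPM in wildtype and 0.0274 CPM in AhR-deficient BMDMs, and it shares exons with Ugt1a7c. Il22 and Ugt1a6b passed the filter on low counts through wildtype libraries, the genotype in which they were higher. Both are among the 3 genes called lower after LPS, and Il22 is also among the 3 without stimulation. These counts of lower genes are therefore not independent of the filter. Of the 9 Ugt1a genes, 3 passed the filter, and Ugt1a7c was the most abundant of them.

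For Ahr, Ahrr and Cyp1b1, the genes with the most similar pattern were sought by the Pearson correlation of log2(CPM + 0.5) over the 24 libraries, among 12714 tested genes with a mean of at least 1 CPM. The libraries share 4 groups and the slope on length, so the values describe likeness only. Closest to Ahr were Plbd1 (r = 0.934), Dmwd (r = 0.895) and Rfxap (r = 0.846). Plbd1 followed the 4 groups in the order of Ahr, at 32.4, 11.6, 21.6 and 68.4 CPM in unstimulated wildtype and AhR-deficient BMDMs and then in wildtype and AhR-deficient BMDMs after LPS. Closest to Ahrr were Kmo (r = 0.984), which encodes the kynurenine monooxygenase of tryptophan breakdown, Acp1 (r = 0.973) and Prr5 (r = 0.973). Kmo stood at 59.1 and 83.7 CPM in wildtype and 0.616 and 0.611 CPM in AhR-deficient BMDMs. Closest to Cyp1b1 were Nr4a1 (r = 0.910), S1pr1 (r = 0.905) and Mirt2 (r = 0.903). S1pr1 stood at 1.42 and 0.189 CPM without stimulation and 8.96 and 1.87 CPM after LPS, in wildtype and AhR-deficient BMDMs.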

How the data were processed

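RNA of 24 BMDM cultures was sequenced by the authors after poly(A) selection with a strand-specific kit, aligned to mm10 with GSNAP and counted with featureCounts 2.0.1 on Ensembl 98 genes (reverse-stranded, uniquely aligned, fragments on several genes left out). The submitters' notes also list hg38, which has no role in the counts. The deposited values are these raw counts, with merged exon lengths beside them. The 92 spike-in sequences, with 1 count in all, were left out. A single model in edgeR 4.0.16 (R 4.3.3) held all 24 libraries and the 4 groups, scaled by TMM and filtered by filterByExpr, for the robust quasi-likelihood F-test, and p-values were adjusted by Benjamini-Hochberg over 16593 genes. Standard errors are the log2 fold change divided by the square root of F. The biological coefficient of variation was 49.1%, so that spread between libraries limits the precision more than counting does, except for genes with few fragments, such as Ahrr in AhR-deficient and Cyp1b1 in unstimulated AhR-deficient BMDMs. Separate animals are stated by the methods only, and p-values measure the spread between these libraries. The fit was also run on simulated counts, drawn as independent libraries from its own dispersions. That simulation held neither the slope on gene length nor shared animals, and no result here rests on it.

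The 7 genes and all gene lists were chosen with earlier results of these data known. A further gene of the list of the cytosolic complex is not reported here. Named beside them were list members called in a comparison (at most 3 per list, by fold change, averaging 1 CPM or more over the groups compared) and the 3 genes most like Ahr, Ahrr and Cyp1b1. Cell type markers and uncalled genes given as examples were named outside this rule. Among these markers is Klrb1c, from a list whose median sum lay under 1 CPM in each group. Promoters came from RefSeq (GRCm38.p6), exons and symbols from GENCODE M21 (55154 genes matched), and primers from the study's supplement. Ahr has no entry among the promoters, and proteins were not compared. Alternatives were DESeq2 size factors, total library size, DESeq2 1.42.0, limma-voom (limma 3.58.1), no filter, a mean of at least 1 CPM, the 12 libraries compared alone, run, length slope or Y-linked expression as covariates, no minimum fold change and each library left out. Dropping replicates 34 and 38 together and the length of the own exons of Ugt1a7c were chosen after seeing the data. Ratios and correlations were made with pandas 2.3.3 and numpy 2.4.6 (Python 3.11.15), plots with matplotlib 3.10.9.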

Additional observations from a re-analysis of the deposited data

Results flagged for a closer look

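Among 28 sets of 6 libraries, 7 genes in 4 groups, 1 library stood apart from its group by the gap to its nearest neighbour, relative to the range (critical value 0.625). It was the lowest of the LPS-stimulated AhR-deficient libraries for Ugt1a7c, replicate 24 at 7.84 CPM, where the others held 11.8 to 13.3 CPM. Chance alone gives about 1 such library in 20 sets. Replicate 24 was also the lowest of its group for Tiparp, Cyp1b1 and Nqo1.

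For 3 genes the effect of genotype differed between unstimulated and LPS-stimulated BMDMs by the interaction term of edgeR's quasi-likelihood test, at 3.29 for Ahr, 1.48 for Tiparp and −1.21 for Ugt1a7c on the log2 scale. For Ahr the genotype effect was negative without stimulation and positive after LPS, with both called. The call of Ugt1a7c (adjusted p = 0.042) was lost without any 1 of 16 of the 24 replicates (0.051 to 0.075), with limma-voom, without a filter on low counts and without replicates 34 and 38 (0.080).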

How the results depend on the processing

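No paired analysis was made, because the labels do not tie libraries of different groups to the same animal. The tests treated all libraries as separate. Replicates 34 and 38, low in Y-linked genes, stand at the same position of their group in the same run. Whether they come from the same animal is not stated, and pairing by position was not tested. A fit with run as a factor changed 1 call of the 7 genes, that of Ahrr for LPS in AhR-deficient BMDMs (−1.29, adjusted p = 0.042). Of 378 values of the 7 genes under other settings, 348 kept direction and call, and of 840 values with a replicate left out, 790 did. The counts of called genes stayed within 1.5 times those reported, except for LPS in wildtype, where 3 genes were called with total library size and 3 without a minimum fold change. The longer promoter motif was found in 1 gene in place of 4.

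The directions that turned belong to uncalled values near 0. Nqo1 by genotype without stimulation was −0.033 with total library size, −0.025 with Y-linked expression as a covariate and −0.014 without the libraries under 1 CPM of Y-linked genes. Arnt was 0.024 by genotype after LPS and 0.023 in the interaction with the length slope, −0.17 and −0.043 for LPS in wildtype with total library size and the length slope, and 0.015 for LPS in AhR-deficient BMDMs with DESeq2 size factors and with DESeq2. Tiparp for LPS in wildtype was −0.30 with total library size, −0.031 with a mean of at least 1 CPM, −0.013 with the length slope and −0.0079 with the 12 libraries alone. Nqo1 for LPS in AhR-deficient BMDMs was 0.021 with DESeq2 size factors and with DESeq2, 0.014 with limma-voom and 0.013 with the length slope. With a replicate left out, Arnt ranged from −0.036 to 0.28 and from −0.25 to 0.067 by genotype without stimulation and after LPS and from −0.18 to 0.14 for LPS in AhR-deficient BMDMs, Nqo1 from −0.11 to 0.18 by genotype without stimulation and from −0.20 to 0.17 for LPS in AhR-deficient BMDMs, and Tiparp from −0.028 to 0.13 for LPS in wildtype. The cause was not tested. Total library size moved the median of all genes by −0.34 for LPS in wildtype, −0.48 for LPS in AhR-deficient BMDMs and −0.13 in the interaction. Under it Ahr (−1.08) and Ugt1a7c (−1.02) were called for LPS in wildtype and Nqo1 (−0.95) in the interaction. Levels of Ahrr and Cyp1b1 in AhR-deficient BMDMs rest on 208 or fewer fragments per group except for Cyp1b1 after LPS (901), which limits their fold changes.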
